A study of Mus musculus with 12 samples.

Results

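The transcripts described here came from 47 genes of the synapse and of the maturing neuron, measured in differentiated mouse neurospheres on 12 2-colour Agilent arrays. They were chosen by name: vesicle and SNARE proteins, active zone proteins and calcium channels, vesicular transporters, synaptic adhesion molecules, postsynaptic scaffolds and kinases, transmitter receptors, and proteins of the neuronal cytoskeleton and identity. The 47 genes were among 20887 genes named on the array and were represented by 83 probes, found through their RefSeq accessions. 45 of the 47 genes had a probe well above background for 1 condition of a comparison (3 or more of its 4 arrays), as did 14327 of all named genes. The calcium channel gene Cacna1b and the scaffold gene Shank2 did not, each with 1 probe, and were not tested.

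Neurospheres are floating clusters of neural progenitor cells. Here the telencephalon was taken from embryos at day 13, and the cells were kept 5 days (per the labels, the study's methods giving a different time) in suspension with EGF and FGF2, then differentiated for 7 days on poly-L-lysine and laminin without these factors. WT neurospheres came from wild-type C57BL/6 embryos. APP_WT, BK_APP and HOE_APP neurospheres all came from APPswe/PS1dE9 embryos, which carry a chimeric amyloid precursor protein with the Swedish mutation and a presenilin with exon 9 deleted, both driven by the prion protein promoter. APP_WT cultures were untreated, BK_APP cultures received 1 µM bradykinin and HOE_APP cultures 1 µM HOE-140, a blocker of the bradykinin B2 receptor, on days 0, 3 and 6. RNA was taken on day 7.

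APP_WT was compared with WT, and BK_APP and HOE_APP each with APP_WT, on 4 arrays per comparison, with the dyes exchanged between replicates 1 and 2 and replicates 3 and 4. APP_WT RNA was thus the reference of both treatments and the first condition of the third comparison, so the 3 comparisons were not independent of each other. The APP_WT versus WT arrays filled 1 slide and the other 8 arrays a second slide, so that slide and comparison cannot be told apart there. The channel labels of the HOE_APP arrays name the same treatment in both dyes. The direction HOE_APP over APP_WT is therefore only likely: it rests on the first channel, on the sample titles and on the BK_APP arrays being laid out alike. The deposited log2 columns carry this sign. Deviations of the HOE_APP arrays from the fit correlated with those of the same-numbered APP_WT versus WT arrays by -0.44 to -0.24, and those of BK_APP by -0.51 to -0.21. With the HOE_APP sign turned, its correlations would by arithmetic be of the same size but positive, unlike those of BK_APP. This bears on the direction only if same-numbered arrays shared APP_WT RNA, which the labels do not give. Arrays of 1 dye orientation mirror each other in these deviations, so each range comes from 1 value per orientation. Per array, 51.2% to 60.3% of spots stood well above background. With 4 arrays to a comparison, precision is limited by their number.

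Most of the proteins named here act at one place. A presynaptic terminal stores transmitter in vesicles, synaptotagmin senses the calcium that enters through channels of the active zone, and the SNARE proteins syntaxin, SNAP-25 and synaptobrevin fuse the vesicle with the membrane. Neurexins and neuroligins hold the cleft together, and on the far side scaffolds such as PSD-95, Homer and Shank anchor glutamate receptors and CaMKII. Neurofilaments, MAP2 and class III tubulin build the axon and dendrite that carry these sites. Transcripts of the neuron-defining markers Tubb3, Rbfox3, Map2 and Stmn2 were well above background in both channels on every array. In bulk RNA, fewer neurons and less RNA per neuron cannot be told apart.

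The promoters of 4 members are printed because they show the sequence types among the presynaptic genes: Syn2, Syp and Cplx1, which were higher in APP_WT neurospheres, and Syn1, which was not. Each line gives the 250 bases before an annotated start from RefSeq (build GRCm38.p6), read 5′ to 3′ on the gene's strand. Capitals mark a GC box (GGGCGG or its reverse complement), a cAMP response element (TGACGTCA) or the left part of the RE1 element that binds the neuronal repressor REST (TTCAGCACC), searched on both strands. Syn2 lies at chr6:115134652-115134901 on the plus strand, Syp at chrX:7638330-7638579 on the plus strand, Cplx1 at chr5:108550028-108550277 on the minus strand and Syn1 at chrX:20920919-20921168 on the minus strand.
Syn2: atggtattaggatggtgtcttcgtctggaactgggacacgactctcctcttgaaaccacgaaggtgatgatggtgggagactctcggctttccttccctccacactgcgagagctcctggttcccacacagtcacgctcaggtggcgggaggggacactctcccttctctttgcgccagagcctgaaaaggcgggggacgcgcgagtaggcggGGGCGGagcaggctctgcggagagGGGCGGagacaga
Syp: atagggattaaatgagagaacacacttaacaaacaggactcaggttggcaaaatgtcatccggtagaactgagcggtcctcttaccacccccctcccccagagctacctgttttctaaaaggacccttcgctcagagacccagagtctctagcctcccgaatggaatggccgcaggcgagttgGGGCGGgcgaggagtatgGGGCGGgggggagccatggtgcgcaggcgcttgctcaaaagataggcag
Cplx1: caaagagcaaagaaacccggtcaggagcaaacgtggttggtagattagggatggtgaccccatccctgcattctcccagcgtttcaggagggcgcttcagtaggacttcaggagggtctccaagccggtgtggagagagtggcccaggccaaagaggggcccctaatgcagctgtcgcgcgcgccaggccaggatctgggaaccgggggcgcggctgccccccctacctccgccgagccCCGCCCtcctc
Syn1: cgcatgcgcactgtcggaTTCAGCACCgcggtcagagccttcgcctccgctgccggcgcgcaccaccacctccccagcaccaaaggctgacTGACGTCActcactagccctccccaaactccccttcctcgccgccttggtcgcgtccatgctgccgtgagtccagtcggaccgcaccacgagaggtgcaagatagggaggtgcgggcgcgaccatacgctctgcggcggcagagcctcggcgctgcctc

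Promoters were matched for 31 of the 47 genes. A GC box was present in 18 of these 31 (58.1%), against 35.4% of the 27025 genes in the table, with windows of the same length. It was found in 5 of the 7 matched genes that were higher in APP_WT (Cplx1, Stx1a, Syn2, Syp and Syt1) and in 2 of the 4 that were lower (Gabra2 and Map2). The higher genes Sv2b and Grin1 had none, while Rab3a, Sv2a, Pclo, Rims1 and Slc17a6, which did not pass, had a GC box. The RE1 left part was present in 2 of 31, Nlgn1 and Syn1 (6.45%), against 0.348% of all genes in the table. The cAMP response element was present in Syn1 alone (3.23%, against 1.77%). A TATA box (TATAAA) was found in Dlg2 and Sv2b (6.45%, against 14.3%). For 10 of the 31 genes the table gives several starts. A match counted in any window of a gene, for the 31 and for all genes alike. This was so for the RE1 left part of Nlgn1, the GC box of Dlg4 and the TATA box of Dlg2. Of the genes printed, Syn2 has more than 1 start and the most upstream is shown. These matches describe the letters of the windows only.

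In APP_WT versus WT neurospheres, 11 of the 45 genes were higher and 6 lower at a Benjamini-Hochberg adjusted p below 0.05 in limma, the tool used for every fit here, with adjustment over all expressed probes. Of all 14327 expressed genes, 17% were higher and 8.01% lower, against which the 11 and 6 of 45 are to be read. Of the 11 genes that rose, 8 were presynaptic, led by the vesicle genes Syt1, Syp and Syn2. They were 7 of the 13 vesicle and SNARE genes and 1 of the 4 tested active zone and channel genes. Neither of the 2 vesicular transporters rose. The genes that fell were led by the neurofilament genes Nefm and Nefl, which were 1.74-fold and 1.65-fold lower. The median log2 fold change over the 45 genes was 0.04, beside 0.02 over all expressed genes.

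The scale of the ratios mattered for the direction of the small changes. The values above and those that follow were normalised by loess, which bends each array's log2 ratios to zero along the intensity range. With each array only centred on its median, 3 of the 45 genes were higher (Syt1, Grin1 and Camk2a) and 9 lower (Nefm, Nefl, Map2, Homer1, Gria2, Gabra2, Nrxn3, Syt4 and Tubb3). Of all 14327 expressed genes, 1492 were then higher and 2196 lower, against which the 3 and 9 are to be read. The median of the 45 genes moved from 0.04 to -0.09, and that of all expressed genes from 0.02 to -0.08. Higher genes made up 68.0% of all calls in the array under loess, 40.5% under median centring, 44.7% with the scanner's processed signals and 43.7% in the deposited log2 table.

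**Figure D1:**
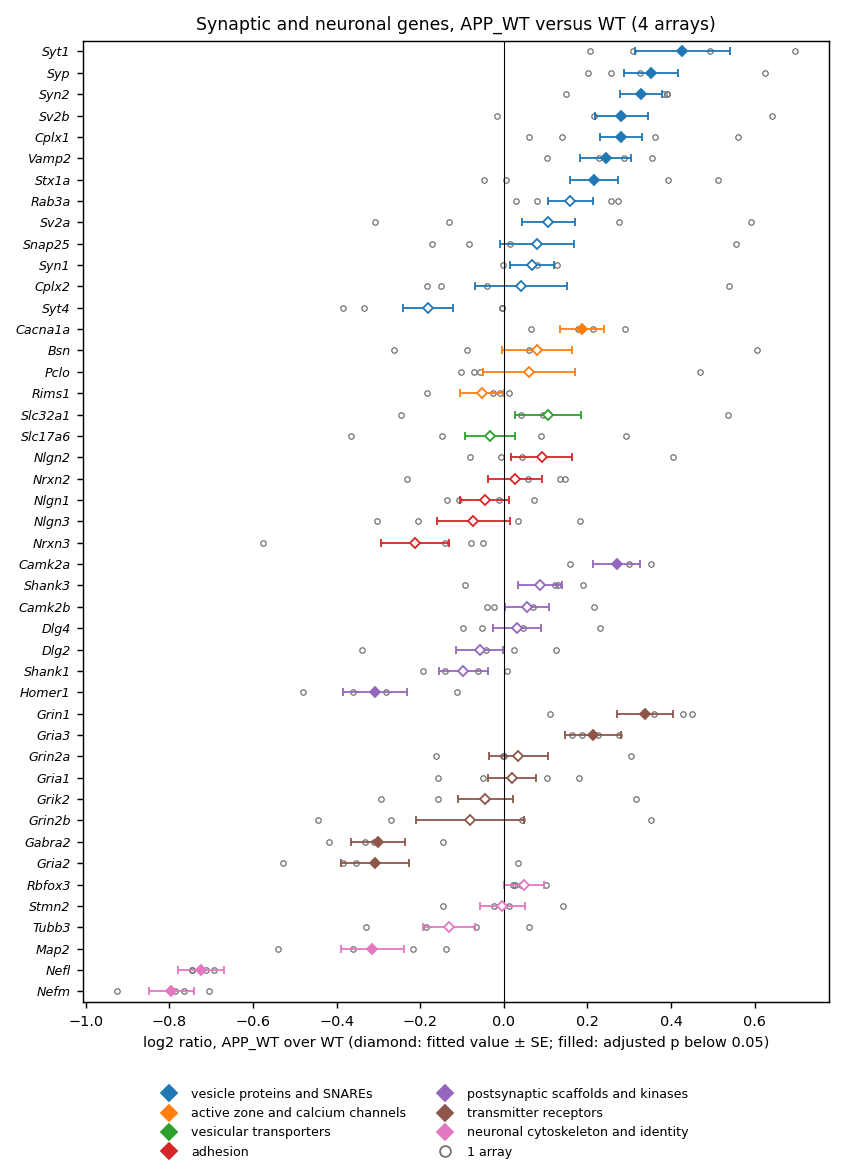
Log2 ratio of APP_WT over WT for the 45 expressed genes, ordered by role and then by value. Open circles are single arrays, diamonds are fitted values with standard errors, and filled diamonds have an adjusted p below 0.05. Nefm and Nefl stand apart at -0.80 and -0.72 with all 4 arrays below -0.69.

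Among the 13 vesicle and SNARE genes, 7 rose and none fell, with a median log2 fold change of 0.22 and 12 of 13 values above 0. Under median centring 1 rose (Syt1), 1 fell (Syt4), 7 of 13 values lay above 0 and the median was 0.08. Syt1 encodes the calcium sensor of fast transmitter release. Its log2 ratios on the 4 arrays, in the order of the replicates, were 0.31, 0.49, 0.70 and 0.21. All were above 0, and the fitted change was 0.43 ± 0.11 (SE, n = 4 arrays, adjusted p = 0.024), or 1.34-fold. Syp encodes synaptophysin, an abundant membrane protein of the vesicle. Its ratios were 0.20, 0.32, 0.63 and 0.26, with a change of 0.35 ± 0.06 (SE, adjusted p = 0.0032). All 4 arrays again lay above 0.

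Syn2, one of the promoters printed above, encodes a synapsin that tethers vesicles in the reserve pool. Its log2 ratios were 0.39, 0.38, 0.39 and 0.15, and the change was 0.33 ± 0.05 (SE, adjusted p = 0.0012). Replicate 4 was the low array of a set that was otherwise nearly identical. Cplx1 encodes complexin, which clamps the SNARE complex before fusion. Its ratios of 0.36, 0.56, 0.14 and 0.06 gave 0.28 ± 0.05 (SE, adjusted p = 0.0030). All were above 0, but replicates 1 and 2, in which APP_WT carried Cy3, were the higher pair.

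A split of this kind was seen in other vesicle genes too. Sv2b, a vesicle membrane glycoprotein, had log2 ratios of 0.64, 0.28, 0.22 and -0.02, with a change of 0.28 ± 0.06 (SE, adjusted p = 0.011). Stx1a, the syntaxin of the plasma membrane SNARE complex, had ratios of 0.51, 0.39, 0.01 and -0.05, with a change of 0.22 ± 0.06 (SE, adjusted p = 0.025). In both genes replicate 4 was just below 0 and the arrays did not share a sign. Vamp2, the vesicle SNARE synaptobrevin, was above 0 on all 4 arrays, at 0.29, 0.35, 0.23 and 0.10, with a change of 0.24 ± 0.06 (SE, adjusted p = 0.019). The model fitted a dye coefficient per comparison, so that its standard errors measure the spread within a dye orientation. Over the 45 genes the median absolute difference between orientations was 0.14 on the log2 scale, beside a median absolute change of 0.11.

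The other 6 vesicle genes did not pass the test. Rab3a, the GTPase of the vesicle, was at 0.16 ± 0.05 (SE, adjusted p = 0.069) with all 4 arrays above 0. Syt4, a synaptotagmin of dense-core vesicles, was at -0.18 ± 0.06 (SE, adjusted p = 0.058), with replicates 3 and 4 at -0.34 and -0.38 and replicates 1 and 2 near 0. Snap25 (0.08), Syn1 (0.07), Sv2a (0.11) and Cplx2 (0.04) were closer to 0. In Snap25, Sv2a and Cplx2 replicate 3 reached 0.56, 0.59 and 0.54 while at least 2 other arrays lay below 0.

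Of the active zone genes and calcium channels, 1 of the 4 tested passed. Cacna1a, the pore subunit of the P/Q-type calcium channel, had log2 ratios of 0.18, 0.21, 0.29 and 0.07 and a change of 0.19 ± 0.05 (SE, adjusted p = 0.030). The values stayed above 0 throughout. The large scaffold genes Bsn and Pclo were at 0.08 and 0.06, and Rims1 was at -0.05. Neither vesicular transporter passed, with the glutamate transporter Slc17a6 at -0.03 and the GABA transporter Slc32a1 at 0.11. None of the 5 adhesion genes passed. The lowest of them was the neurexin gene Nrxn3 at -0.21 ± 0.08 (SE, adjusted p = 0.10), below 0 on all 4 arrays, and Nrxn2, Nlgn1, Nlgn2 and Nlgn3 lay between -0.07 and 0.09.

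Among the 7 tested postsynaptic scaffolds and kinases, 1 rose and 1 fell. Camk2a, the alpha subunit of the calcium/calmodulin kinase of the postsynaptic density, had log2 ratios of 0.30, 0.16, 0.35 and 0.27 and a change of 0.27 ± 0.06 (SE, adjusted p = 0.0068). Its 4 arrays differed little. Homer1, the scaffold that joins metabotropic glutamate receptors to Shank, had ratios of -0.11, -0.48, -0.28 and -0.36 and a change of -0.31 ± 0.08 (SE, adjusted p = 0.017). Every array lay below 0. The PSD-95 gene Dlg4 was at 0.03, and Dlg2, Shank1, Shank3 and Camk2b lay between -0.10 and 0.09.

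Of the 8 transmitter receptor genes, 2 rose and 2 fell, and the median was -0.01. Grin1, the obligatory subunit of NMDA receptors, rose by 0.34 ± 0.07 (SE, adjusted p = 0.0056), with array values of 0.45, 0.43, 0.36 and 0.11. Gria3, an AMPA receptor subunit, rose by 0.21 ± 0.07 (SE, adjusted p = 0.049), with values of 0.19, 0.28, 0.16 and 0.23. No array of either gene was below 0, although the p of Gria3 lay just under the threshold. Gria2, the subunit that sets the calcium permeability of AMPA receptors, changed by -0.31 ± 0.08 (SE, adjusted p = 0.023), at 0.03, -0.35, -0.38 and -0.53. Replicate 1 was near 0 and the other 3 were low. Gabra2, a GABA-A receptor subunit, changed by -0.30 ± 0.06 (SE, adjusted p = 0.0085), at -0.31, -0.42, -0.15 and -0.33. All of its arrays were below 0. The remaining receptor genes Gria1, Grin2a, Grin2b and Grik2 lay between -0.08 and 0.03 and did not pass.

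Of the 6 genes of the neuronal cytoskeleton and identity, 3 fell, none rose and the median was -0.22. Nefm, the medium neurofilament chain, had log2 ratios of -0.76, -0.79, -0.92 and -0.71, with a change of -0.80 ± 0.05 (SE, adjusted p = 3.8e-06). Nefl, the light chain, had ratios of -0.75, -0.75, -0.69 and -0.71, with a change of -0.72 ± 0.05 (SE, adjusted p = 7.8e-06). The 4 arrays of both genes were within a narrow band, and the normalised log2 intensity of Nefl was 11.87 ± 0.12 in APP_WT and 12.59 ± 0.13 in WT (SD, n = 4). The genes are neighbours on 1 chromosome with 0 annotated coding genes between them. Under median centring their changes were -0.90 and -0.89. Map2, the dendritic microtubule protein, had ratios of -0.22, -0.36, -0.14 and -0.54, with a change of -0.31 ± 0.07 (SE, adjusted p = 0.014). Tubb3 was at -0.13 ± 0.06 (SE, adjusted p = 0.17), and Stmn2 and Rbfox3, the gene of the nuclear marker NeuN, were at -0.00 and 0.05. Under median centring 4 of the 6 fell, Tubb3 being the fourth, and the median was -0.40.

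The sign was the same on all 4 arrays for 11 genes above 0, beside 20.9% of all genes with a value on every array, and for 7 genes below 0, beside 12.5%. The first set held Rab3a and Rbfox3 in place of Sv2b and Stx1a of the called genes. The second held Syt4 and Nrxn3 in place of Gria2. By the pair of tests that the study's methods name, SAM and rank products at unadjusted p, 7 of the 45 genes passed (Nefm, Nefl, Map2, Homer1, Gria2, Gabra2 and Syt1), beside 13% of all genes.

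Several expressed probes represented 20 of the 45 genes, and the values above are those of the probe with the highest mean intensity. Different probes of a gene did not always agree. For Cplx2, the brightest probe gave 0.04 and another gave 0.38 ± 0.06 (SE, adjusted p = 0.0015). The other probe of Gria2 gave -0.04 (adjusted p = 0.76) and the other probe of Camk2a 0.09 (adjusted p = 0.31). The other probe of Gria3 gave 0.18 (adjusted p = 0.073), so that the calls of these 3 genes rest on 1 of 2 probes. Of 5 Homer1 probes, which ranged from -0.33 to -0.02, 3 passed. The 6 Nrxn3 probes ranged from -0.21 to 0.23 and none passed. Both probes passed for Syn2, Cacna1a and Map2, while Syt1, Syp, Vamp2, Stx1a, Sv2b, Cplx1, Gabra2, Nefl and Nefm had 1 probe each. The dimmer Syn2 probe (0.40) and the Cplx2 probe at 0.38 passed SAM and rank products, unlike the brightest probes of these genes.

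**Figure D2:**
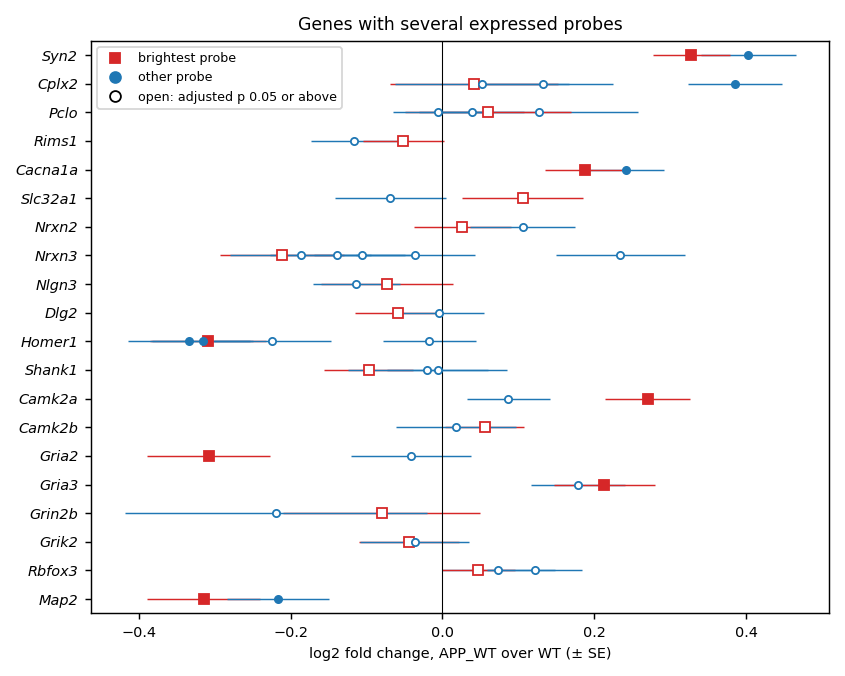
Log2 fold change of APP_WT over WT, with its standard error, for each expressed probe of genes that have several. Red squares mark the brightest probe, whose value stands for the gene, and filled symbols have an adjusted p below 0.05. The probes of Cplx2 span 0.04 to 0.38 and those of Nrxn3 cross 0.

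Settings that ended a call differed between genes. The 12 other limma fits were not all separate checks. For this comparison the slides apart and its own arrays are the same fit, and the deposited table nearly repeats the processed signals. Nefl and Nefm passed in each of 12 other limma fits and with each array left out in turn, and Gabra2 passed in the 12 fits and in 3 of 4 omissions. Syt1 also passed in the 12 fits but in 2 of 4 omissions, being lost without replicate 2 or 3. Among these fits Syn2 was lost under median centring alone, at 0.17 (adjusted p = 0.13), and Grin1 with the processed signals and the deposited table. Neither passed SAM and rank products by the probe that stands for it, although the dimmer Syn2 probe did. Gria3 passed in 2 of the 12 fits and in none of the 4 omissions, and Cacna1a in 4 fits and 1 omission. No change of sign was found for any of the 17 genes.

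**Figure D3:**
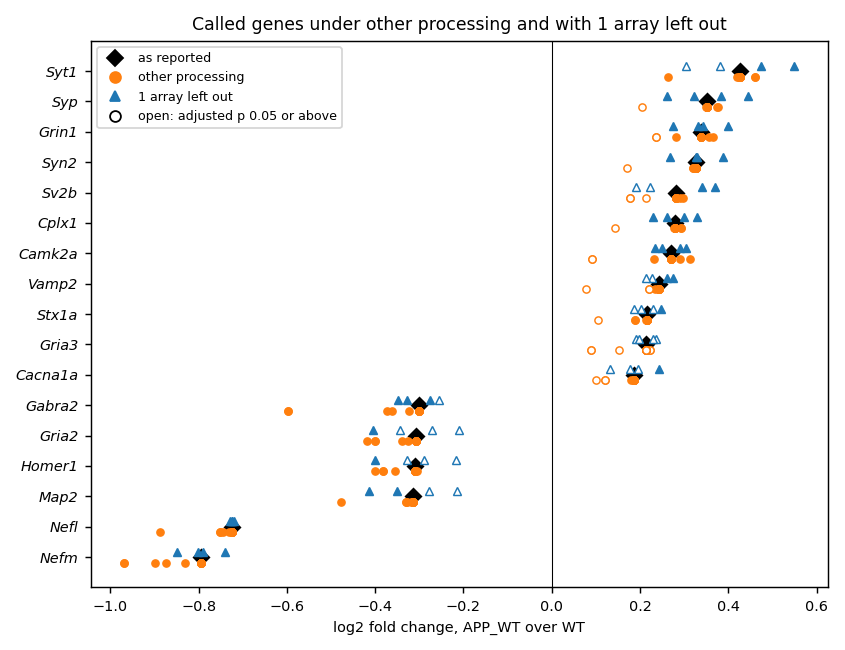
Log2 fold change of APP_WT over WT for the 17 genes that passed the test, as reported (black diamonds), under 12 other limma fits (orange circles) and with 1 array left out (blue triangles). Open symbols have an adjusted p of 0.05 or above. Nefl and Nefm keep filled symbols throughout, while Gria3 and Cacna1a have mostly open ones.

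Genes with related functions outside the 47 were read in the same way in APP_WT versus WT. Of 81 other synaptic genes, 72 were tested, of which 13 rose and 8 fell, with a median of 0.04, to be read against 17% and 8.01% of all genes. Among those with the smallest p were the vesicle protein gene Synpr (-0.50), the GABA-A receptor subunit gene Gabrb1 (0.44) and the vesicular glutamate transporter Slc17a7 (0.58). Of 33 other neuronal identity and cytoskeleton genes, 6 rose and 14 fell, with a median of -0.18. Those with the smallest p were the neuropeptide genes Npy (1.29) and Sst (0.81), which were higher, and the transcription factor genes Dlx1 (-0.59) and Neurod2 (-0.48), which were lower.

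Markers of other cells moved in the same arrays. Of 12 tested microglia markers, out of 13, 11 rose, with a median log2 fold change of 1.49, and Cx3cr1, Aif1, C1qc and Tyrobp were at 2.31, 2.22, 2.07 and 2.22. P2ry12 was not above background. The sum of their intensities ranged from 13927 to 17962 in APP_WT and from 9759 to 11931 in WT. Of 10 astrocyte markers, 8 rose, with a median of 0.37, and Aqp4 and Gfap were at 0.73 and 0.69. Their summed intensity was 138813 to 153646 in APP_WT and 100842 to 123342 in WT. The summed intensity of the 45 synaptic and neuronal genes was 190224 to 220405 in APP_WT and 192019 to 221944 in WT. All these ranges run across arrays and do not compare the conditions within an array. The sums were taken after loess and weigh bright probes most, so they do not measure total RNA of a cell type. Of 10 progenitor markers 4 rose and 2 fell (median 0.04), of 10 oligodendrocyte markers 1 rose and 1 fell (median 0.06), and of 7 tested proliferation markers none passed (median -0.02). Of 8 endothelial and mural markers 5 were tested and 1 fell (median -0.03), and Cdh5, Cldn5 and Rgs5 were not above background. The part of these cells in the values of the synaptic and neuronal genes was not tested.

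In BK_APP versus APP_WT neurospheres, no gene of the 45 passed, as was the case for the array as a whole (0% of 14327 genes), and the smallest adjusted p among the 45 was 0.967. Before adjustment 6 of the 45 had p below 0.05, all of them lower, beside 4.78% of all genes in both directions. The values were small and mostly on one side: 38 of 45 were below 0, against 49.5% of all genes, and the median log2 fold change was -0.08, against 0.00. The medians of the single arrays were -0.02, -0.06, -0.08 and -0.06. Under median centring 26 of 45 were below 0 and the median was -0.01, while that of all genes was 0.05.

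By the brightest probe of each gene, the lowest values under bradykinin were those of Syt1 (-0.17 ± 0.11, SE), Vamp2 (-0.16 ± 0.06) and Cplx1 (-0.16 ± 0.05). The Syt1 arrays read 0.04, -0.36, -0.45 and 0.10, Vamp2 read -0.40, -0.32, 0.19 and -0.12, and Cplx1 read -0.26, -0.28, 0.02 and -0.10. Each of these genes had at least 1 array above 0. The highest values were those of Sv2b (0.07), Camk2a (0.04) and Grin2a (0.03). Dlg2, Camk2b, Gria3, Grin1, Gabra2 and Tubb3 were below 0 on all 4 arrays, which is 6 of 45, beside 4.56% of all genes. Tubb3, with values of -0.08, -0.17, -0.08 and -0.22, was at -0.14 ± 0.06 (SE, unadjusted p = 0.049, adjusted p = 0.967). The neurofilament genes Nefl and Nefm were at -0.15 and -0.08, with array values between -0.37 and 0.11. None of the 45 genes passed SAM and rank products by its brightest probe, beside 1.6% of all genes. A dimmer probe of Nrxn3 (-0.23) and a dimmer probe of Pclo (-0.33) did pass them. Both had an adjusted p of 0.967 in limma.

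In HOE_APP versus APP_WT neurospheres, again no gene of the 45 passed (0% of all genes), and 5 of the 45 had an unadjusted p below 0.05, all of them higher, beside 4.91% of all genes. Every direction in this comparison holds for the likely reading of the labels, and with the sign turned higher becomes lower and the ranks below exchange. The median was -0.00, with 25 genes below 0 and 20 above, and the medians of the single arrays were 0.08, 0.02, -0.07 and 0.03. Under median centring 40 of the 45 were above 0 and the median was 0.11, beside 0.10 for all genes. The highest value was that of Stx1a, at 0.22 ± 0.06 (SE, unadjusted p = 0.0034, adjusted p = 0.924). Its array values were -0.01, 0.23, 0.30 and 0.36, all but replicate 1 above 0. Stx1a was the single gene of the 45 to pass SAM and rank products, beside 1.45% of all genes.

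Sv2b (0.15) and Dlg2 (0.13) followed Stx1a. The lowest values were those of Cplx2 (-0.14), Gria3 (-0.12) and Nlgn3 (-0.11). Dlg2, which encodes the postsynaptic scaffold PSD-93, read 0.12, 0.25, 0.11 and 0.05, Sv2b read 0.01, 0.05, 0.22 and 0.30, and Syt4 read 0.11, 0.08, 0.02 and 0.01. These were the 3 genes above 0 on all 4 arrays, beside 6.26% of all genes. Map2 and the neurofilament genes Nefl and Nefm were at -0.02, 0.05 and 0.08. The median absolute difference between the dye orientations was larger than the median absolute change in both treatments, at 0.20 against 0.07 for HOE_APP and 0.12 against 0.08 for BK_APP.

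**Figure D4:**
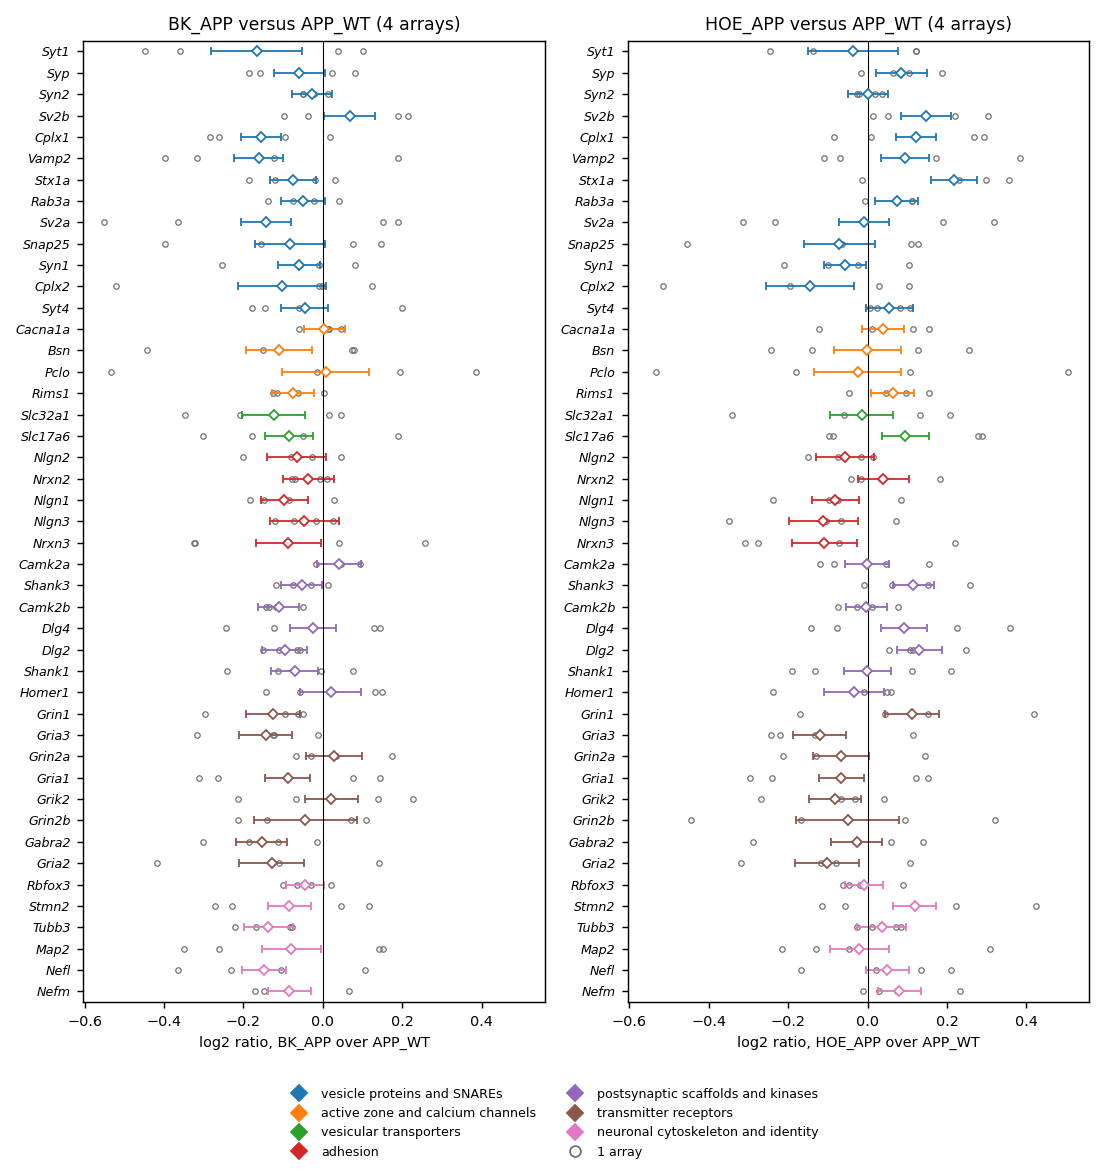
Log2 ratios of BK_APP over APP_WT (left) and of HOE_APP over APP_WT (right) for the 45 expressed genes, in the order of the APP_WT versus WT plot. Circles are single arrays and open diamonds are fitted values with standard errors, none with an adjusted p below 0.05. On the left 38 of 45 diamonds lie below 0, on the right 25.

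Bradykinin and HOE-140 were given at the same dose and times, and the difference between their changes was tested directly in the model. No gene passed (0% of all genes), and 8 of the 45 had an unadjusted p below 0.05, all of them lower with BK than with HOE, beside 2.96% of all genes. The genes with the smallest p in limma were Cplx1 (-0.28 ± 0.07, SE), Stx1a (-0.29 ± 0.08), Vamp2 (-0.26 ± 0.09) and Dlg2 (-0.23 ± 0.08), each with an adjusted p of 1.00. Same-numbered BK_APP and HOE_APP arrays deviated together (r = 0.42 to 0.43). With the number as a block, no gene passed in any of 5 fits, and how many of the 45 had an unadjusted p below 0.05, all of them lower, differed with the way the block was fitted. The block over all arrays as planned had a correlation of -0.15 within numbers, opposite in sign to that of the BK_APP and HOE_APP arrays. It covered APP_WT both as first and as second condition. The count was 6 with that planned block, beside 2.01% of all genes. In fits chosen after seeing the data it was 12 with the APP_WT versus WT arrays turned (6.45%), 13 in paired differences with a dye coefficient (9.03%), 13 without it (8.65%) and 14 with the BK_APP and HOE_APP arrays alone (9.77%), where the smallest adjusted p in limma was 0.20. Within pairs Cplx1 differed by -0.27, -0.20, -0.28 and -0.36 and Dlg2 by -0.27, -0.31, -0.17 and -0.16. Both kept a single sign. Without the block, the 95% interval of the difference included 0 for 37 of the 45 genes. It reached a median of 0.19 to either side of the estimate, and the widest bounds were -0.49 for Syt1 and 0.41 for Grin2b. In all, 36 of 45 differences were below 0, against 52.2% of all genes, with a median of -0.08. Under median centring 40 were below 0 and the median was -0.13, while that of all genes moved from -0.004 to -0.04. APP_WT stood against both treatments. These directions rest on that of the HOE_APP arrays: with it turned, 32 differences were below 0, the median was -0.06, and 2 of the 45 had an unadjusted p below 0.05 (Gria3 lower, Sv2b higher), beside 7.35% of all genes. Cplx1 was then at -0.03, Stx1a at 0.14, Vamp2 at -0.07 and Dlg2 at 0.03.

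Beside these values, 56 of 72 other synaptic genes and 29 of 33 other neuronal genes were below 0 in BK_APP versus APP_WT, with medians of -0.05 and -0.07. Of all genes, 49.5% were below 0 in this comparison. In the same arrays 10 of 12 microglia markers (median 0.16) and 7 of 7 proliferation markers (median 0.14) were above 0, and 8 of 10 astrocyte markers were below 0 (median -0.06). In HOE_APP versus APP_WT, 12 of 12 microglia markers (median -0.07) and 10 of 10 astrocyte markers (median -0.11) were below 0, beside 47.3% of all genes. With the HOE_APP sign turned all of these markers were above 0. Under the likely sign the other synaptic and other neuronal genes had medians of 0.02 and 0.03. No gene of these lists passed in limma in either treatment. By SAM and rank products, 4 microglia, 3 proliferation, 1 astrocyte and 1 other synaptic gene passed in BK_APP, and 3 other neuronal and 2 oligodendrocyte genes in HOE_APP, beside 1.6% and 1.45% of all genes. These lists were counted under loess only, while the counts of the 45 genes shifted under median centring. The part of the listed genes in the values of the 45 genes was not tested.

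**Figure D5:**
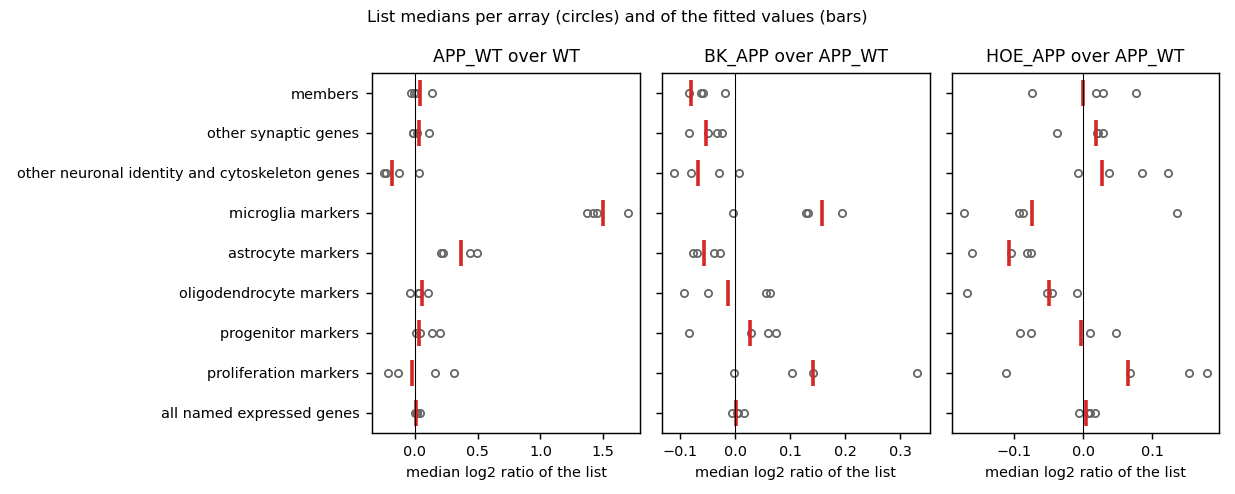
Median log2 ratio of each gene list on each array (circles) and of the fitted values (red bars) in the 3 comparisons, with a wider axis for APP_WT versus WT than for the treatments. The synaptic and neuronal genes described here are the top line, at 0.04, -0.08 and -0.00, and the microglia markers of APP_WT over WT stand at 1.49.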

How the data were processed

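RNA of each comparison was labelled with Cy3 and Cy5, starting from 100 ng, and hybridised on 12 Agilent arrays of 62976 spots. The authors deposited 1 scanner file per array, whose median intensity and background of each spot are not yet normalised, together with processed intensities and a log10 ratio (Feature Extraction 11.0.1.1 per the file headers), and a table of log2 ratios that matched these log ratios.

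Median intensities were corrected by normexp (offset 50) and normalised by loess (span 0.3) with limma 3.58.1 in R 4.3.3. Control spots (3671) were left out, spots marked uneven or outlying were set to missing, and spots of a probe were averaged. Missing values (461 of 29357 expressed probes had one) were not imputed. Log2 ratios were turned to the first condition over the second. A single model covered the 12 arrays and gave each of the 3 comparisons its mean and its dye coefficient (6 residual degrees of freedom). Tests were two-sided, with Benjamini-Hochberg adjustment over the 29357 expressed probes and a threshold of 0.05. A gene took the value of its brightest expressed probe. SAM and rank products were programmed anew. Of 29150 probes with a RefSeq accession, 27509 were named.

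The study names 4 independent replicates. Deviations of same-numbered arrays from the fit correlated by 0.42 to 0.43 between BK_APP and HOE_APP (4 pairs, in which arrays of 1 dye orientation mirror each other), by -0.51 to -0.21 between APP_WT versus WT and BK_APP and by -0.44 to -0.24 between APP_WT versus WT and HOE_APP, APP_WT being the first condition in one and the second in the other. Because of the mirroring each dye orientation gives a single value, whose sign turns with the HOE_APP direction. The values therefore cannot establish that BK_APP and HOE_APP arrays were paired by number, and the labels do not give it. Fits that treat them as paired were added after the data were seen. The alternatives were another background correction or none, median centring, the scanner's processed signals, the deposited log2 table, other filters on dim probes, no dye coefficients, each comparison or slide fitted apart, the replicate block, the other call rule, the median over probes, the turned sign of HOE_APP and each array left out. The 47 genes and the lists beside them (other synaptic, other neuronal, astrocyte, oligodendrocyte, microglia, progenitor, proliferation and endothelial) were chosen with earlier results of these data known. All 47 could be named. Full values were given for those past the threshold in APP_WT versus WT, for the 3 highest and 3 lowest of each treatment, and for at most 4 genes with the smallest p of any other list. Other genes named with values in the treatments were chosen after these were seen.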

Additional observations from a re-analysis of the deposited data

Results flagged for a closer look

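The log2 ratio of Syn2 in APP_WT versus WT on replicate 4 was 0.15, while the other 3 arrays lay at 0.38 to 0.39. The gap to the nearest array made up 0.974 of the whole range, above the critical value of Dixon's test at this number of arrays. Of 32 sets of 4 arrays that were examined in this way it was the only one past that value, and chance alone gives about 1 in 20. Without replicate 4 the change of Syn2 was 0.39, against 0.33 with all arrays.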

How the results depend on the processing

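The number of genes that were higher in APP_WT versus WT was 11 as reported and fell to 3 under median centring, 5 with the processed signals, 5 with the deposited table, 5 without dye coefficients, 3 on the comparison's own 4 arrays, 3 with the slides fitted apart and 1 by SAM and rank products. With each array left out in turn it ranged from 5 (without replicate 3) to 9, and was 7 without replicate 2. The number that were lower was 6, and rose to 9 under median centring, with the processed signals and with the deposited table. The processed signals and the deposited table both added Rims1, Shank1 and Syt4. The number was 4 without dye coefficients, and 3 both on the comparison's own 4 arrays and with the slides apart. Leaving out arrays gave 2 (without replicate 4) to 6, and 3 without replicate 2. For APP_WT versus WT, the comparison's own arrays and the slides apart are the same fit, with fewer residual degrees of freedom. The deposited table nearly repeats the processed signals. The cause of the other differences was not tested. The median over the 45 genes in APP_WT versus WT was 0.04, -0.090 under median centring, and -0.047 (without replicate 3) to 0.12 (without replicate 4) on leaving out arrays. In BK_APP versus APP_WT it was -0.08, and -0.013 under median centring, with -0.08 to -0.05 on leaving out arrays. In HOE_APP versus APP_WT it was -0.00, and 0.11 under median centring, with -0.02 to 0.05. No count of genes passing in the treatments or in their difference rose above 0, except that SAM and rank products gave 1 higher gene in HOE_APP (Stx1a). With the replicate block as planned the counts in APP_WT versus WT were 11 and 6 (correlation within numbers -0.15). With the APP_WT versus WT arrays turned so that APP_WT was the second condition throughout, an alternative chosen after seeing the data, they were 10 and 6 (correlation 0.33), Gria3 being lost at an adjusted p of 0.057. With a block on the BK_APP and HOE_APP arrays alone (correlation 0.44) or paired differences with or without a dye coefficient, also chosen afterwards, no gene passed in the difference and the median was -0.08. The block changed no other call. With the HOE_APP sign turned the HOE_APP median was 0.00 and that of the difference -0.06. No change of a gene that passed in APP_WT versus WT reversed its direction in these settings.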
